A study of Ovis aries with 36 samples.

Results

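The motor cortex and the basal ganglia of 9 lambs were compared within each animal, with 9 motor cortex and 9 basal ganglia libraries out of the 36 RNA sequencing libraries of the study. The libraries were taken by their region label and paired by the letter of the lamb, A to I. Lambs A to E were born preterm, connected at once by cannula to EXTEND, which supports a preterm lamb outside the uterus, and examined after their gestational age had come close to that of the late preterm lambs. Lambs F and G, the late preterm arm, were delivered at 127 days and lambs H and I, the preterm arm, were delivered preterm, and all 4 were examined without support. Lambs A, B, D, E and H were female and C, F, G and I male. No breed, genetic change or drug is given for any lamb, and the labels do not say which nuclei of the basal ganglia or which side of the brain were sampled.

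The motor cortex is a layered sheet whose projection neurons mostly release glutamate and send axons to the striatum, brainstem and spinal cord. The basal ganglia are deep nuclei, chiefly the striatum and the pallidum, whose projection neurons mostly release GABA and which receive dense dopamine input. The striatum takes its main excitatory input from the cortex, and together the regions select and scale movement. In a sheep fetus of this stage both regions hold neurons, astrocytes, oligodendrocyte lineage cells, microglia and vessels in differing shares. In such bulk tissue, fewer cells of a type and less RNA per cell cannot be told apart. Genes are given by their Ensembl identifiers, because the reference table at hand matched 0 of the 27054 identifiers. The 16 marker lists for neurons, glia and other cells could therefore not be applied, and neither the region labels nor the makeup of the tissue was checked against known markers. For the same reason no function, position or sequence is given for a gene.

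The 18 libraries held 10150099 to 18153142 counts, 10150099 to 18153142 in the motor cortex and 10929328 to 17974635 in the basal ganglia. In lambs A, H and I, both libraries were shallower, with at most 13020225 counts in these 6, and in lambs B to G both were deeper, with at least 13765297 in these 12.

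The libraries labelled motor cortex lay close together and those labelled basal ganglia did not. On the first principal component of log2 CPM (counts scaled to library size; 27.5% of the variance) the 9 motor cortex libraries lay between 6.78 and 38.8. Of the basal ganglia libraries, 7 lay between -63.2 and -6.21, while lamb A was at 12.9 and lamb I at 41.0, within or beyond the range of the motor cortex. The second component (18.5%) spread the basal ganglia libraries further, with F at 53.6 and G at 56.0 at one end and B at -50.1 and D at -68.6 at the other, against -15.4 to 13.3 in the motor cortex.

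**Figure D1:**
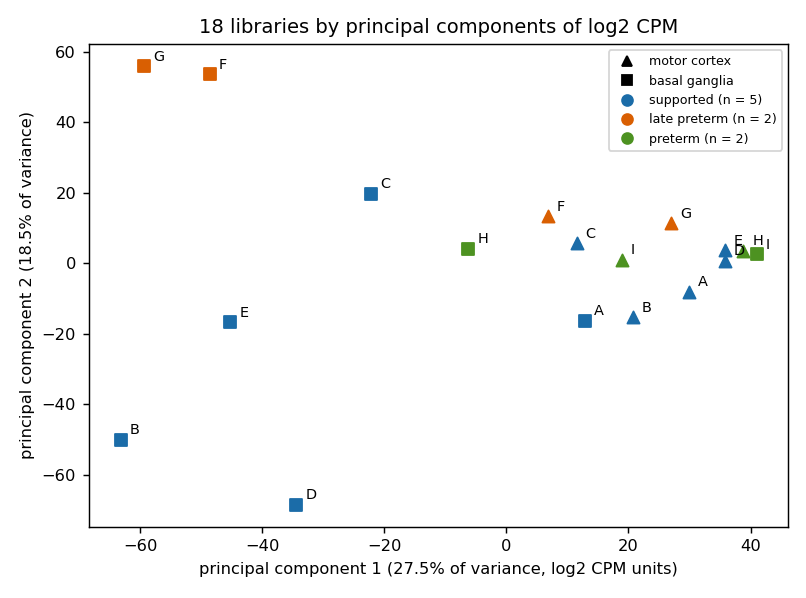
Principal components 1 (x axis, 27.5% of the variance) and 2 (y axis, 18.5%) of log2 CPM in the 18 libraries, with triangles for motor cortex, squares for basal ganglia, the arm as colour and the lamb as letter. The motor cortex libraries sit together at the right and the basal ganglia libraries spread over both axes, with the basal ganglia of lambs A and I among the motor cortex libraries on component 1.

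The spread between lambs was larger in the basal ganglia for most genes. The median SD of log2 CPM over the 9 lambs was 0.347 in the basal ganglia and 0.264 in the motor cortex, and 11141 of 15507 genes (71.8%) had the larger SD in the basal ganglia. Within the 5 supported lambs alone the medians were 0.324 and 0.186, with 80.0% of genes more variable in the basal ganglia, and without lamb I they were 0.332 and 0.251, with 71.5%. An SD above 1 log2 unit over the 9 lambs was found for 1276 genes in the basal ganglia and 403 in the motor cortex. The basal ganglia library lay farther from the mean of the other 8 of its region than the motor cortex library did in every lamb but H. For example, 1863 genes were at least 2-fold away from that mean in the basal ganglia of lamb D and 489 in its motor cortex, while in lamb H the motor cortex library had 951 such genes, more than its basal ganglia library.

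The size of the difference between the 2 regions varied from lamb to lamb. Between the 2 libraries of a lamb, 2630 genes differed at least 2-fold in lamb B, 2349 in D, 2341 in E and 2632 in G, which are 15.1% to 17.0% of the genes. The counts were 926 in lamb A, 1127 in C, 1054 in I and 1227 in H, or 5.97% to 7.91%, and 1526 in F. These are single pairs of libraries, with no error of their own. Both high and low values occurred among the supported lambs.

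Over all 9 pairs, 1084 of 15507 tested genes (6.99%) differed between the regions (edgeR quasi-likelihood test, blocked by lamb, at a Benjamini-Hochberg adjusted p under 0.05). The motor cortex had the higher level in 555 of them (3.58% of the genes tested) and the basal ganglia in 529 (3.41%). The median absolute log2 fold change was 0.64 for the former and 0.73 for the latter, against 0.17 over all tested genes. At least 2-fold differences numbered 142 and 149, at least 4-fold differences 40 and 30, and at least 8-fold differences 10 and 4. Most regional differences were therefore below 2-fold, in both directions.

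Genes higher in the motor cortex were the more abundant ones. Their median level over the 18 libraries was 5.58 log2 CPM (quartiles 4.26 and 6.79), against 4.03 (2.71 and 5.27) for genes higher in the basal ganglia and 4.6 (2.86 and 5.96) for all tested genes. Without lamb I the medians were 5.69, 4.22 and 4.59. These levels are not scaled by gene length, since lengths could not be assigned.

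The direction was shared by all lambs for some of the called genes, and the full ranges of the regions were apart for few. The difference had the same sign in all 9 lambs for 469 of the 1084 genes (43.3%) and in 8 of 9 for 570. In all 15507 tested genes the sign was shared by all 9 lambs for 648 (4.18%). The 9 libraries of one region lay wholly above the 9 of the other for 39 called genes, with the motor cortex above in 21 and the basal ganglia above in 18. Over all tested genes the number was also 39 (0.251%). Among the 570 genes with a single lamb of opposite sign, that lamb was I for 424, B for 33, A for 31, H for 22, C for 18, D for 17, G for 11, F for 9 and E for 5. Over all tested genes, lamb I was the single lamb of opposite sign in 1297 of 2274.

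Lamb I was therefore set apart and each other lamb treated the same way. Genes were called in 8 lambs, and the direction of each was then read in the lamb left out. In 8 of the 9 lambs, 84.1% (lamb B) to 98.7% (lamb E) of these genes had the direction called in the others, with a median of 92.8%. In lamb I the share was 31.3%, or 825 of 2639 genes. Over all tested genes the share of equal direction was 59.3% to 74.5% in the 8 lambs and 39.4% in lamb I. The median difference in the called direction was 0.40 (lamb A) to 1.20 (lamb E) log2 units in the 8 lambs and -0.15 in lamb I. In the genes that separate the regions elsewhere, the libraries labelled motor cortex and basal ganglia of lamb I thus differed little and more often in the opposite direction. On the scale described below, 0 is the mean basal ganglia and 1 the mean motor cortex level of the other 8 lambs. The library of lamb I labelled motor cortex lay at 0.84 there and the one labelled basal ganglia at 0.93. Another place of sampling and a true difference in this animal cannot be told apart from these files, and exchanged labels were not tested. This bears on the counts with and without lamb I alike.

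**Figure D2:**
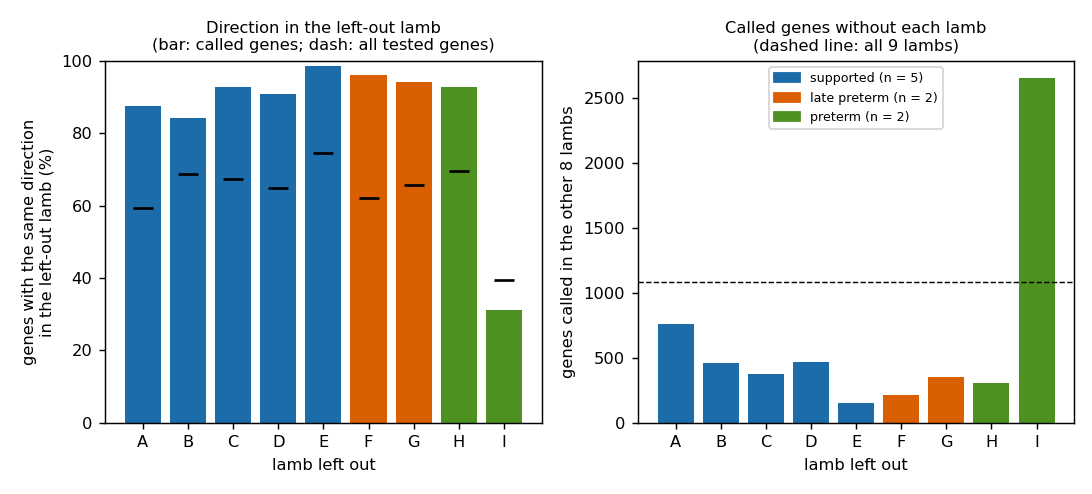
Left, percentage of genes with the same direction in the left-out lamb (y axis) by lamb (x axis), as bars for genes called in the other 8 lambs and dashes for all tested genes. Right, number of genes called in the other 8 lambs (y axis) by lamb left out, with a dashed line at the 1084 genes of all 9 lambs. Lamb I stands apart in both, at 31.3% and 2652 genes.

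Without lamb I, 2652 of 15569 tested genes (17.0%) were called, with the motor cortex higher in 1359 and the basal ganglia in 1293, and 1076 of the 1084 genes were among them with their direction. Their median absolute log2 fold change was 0.61, with 610 genes at least 2-fold and 131 at least 4-fold apart. Leaving out any other lamb lowered the count, to 758 without A, 460 without B, 376 without C, 468 without D, 156 without E, 214 without F, 352 without G and 305 without H. The call with its direction was kept in all 9 of these fits by 131 genes (12.1%), 81 of them with the higher level in the motor cortex and 50 in the basal ganglia, and their median absolute log2 difference was 0.97. When lamb I was also left out of the fits that chose the genes, the share with the called direction in the left-out lamb was 71.8% in A, 83.0% in D, 84.3% in F, 88.4% in C, 90.1% in G, 91.5% in B, 91.8% in H and 97.2% in E. Lamb A thus showed the weakest match among the remaining 8.

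Within the depth groups, the 6 lambs B to G gave 1788 genes (motor cortex higher in 1011, basal ganglia in 777), and the 3 lambs A, H and I gave 2. The first of these, ENSOARG00000001556, was higher in the motor cortex, with a log2 fold change of 3.53 in these 3 lambs (edgeR adjusted p = 0.0273). The second, ENSOARG00000010118, was higher in the basal ganglia, at -1.69 (edgeR adjusted p = 0.0409), and both were picked out because they were so few. In lambs A, H and I 969 genes had an unadjusted p under 0.05. The shallower group also holds the 2 basal ganglia libraries that lay among the motor cortex on the first component. As reasons for its fewer calls, its 3 lambs against 6, its depth and these libraries cannot be told apart. Female lambs alone (5 pairs) gave 1004 genes and male lambs alone (C, F, G and I) none in edgeR, with 1910 at an unadjusted p under 0.05. Whether the sexes differ was not tested.

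Genes were named by their fold change among called genes with a mean of at least 1 log2 CPM, the same sign in all 9 lambs and more than 6 counts in at least 1 library of the lower region. The rule was met by 211 genes with the motor cortex higher and 218 with the basal ganglia higher. Called genes outside the rule reached larger folds, up to 3.54 log2 units in favour of the motor cortex and 4.95 in favour of the basal ganglia. Under the rule, the largest fold in favour of the motor cortex was that of ENSOARG00000002781. Its level there was 24.7 CPM in lamb A, 20.1 in B, 21.8 in C, 17.7 in D, 20.8 in E, 13.1 in F, 13.7 in G, 18.2 in H and 6.56 in I. In the basal ganglia it was 17.5, 0.169, 8.90, 0.327, 0.827, 0.0617, 0.653, 4.74 and 6.01 CPM in the same order. The basal ganglia thus fell into 5 lambs below 1 CPM (B, D, E, F and G) and 4 at 4.74 or more (A, C, H and I), and the regions overlapped, since the basal ganglia values of A and C exceeded the motor cortex value of I. Means were 17.4 ± 5.48 CPM (SD, n = 9) and 4.36 ± 5.86 CPM, and the fitted log2 difference was 3.09 with an SE of 0.79 (edgeR adjusted p = 0.0438). The call was kept in 2 of the 9 fits without 1 lamb, those without A and without I, and was lost without any of the other 7 (log2 fold change 2.72 to 3.48, edgeR adjusted p = 0.0631 to 0.11).

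ENSOARG00000006374 was the second. Its motor cortex levels had a lowest value of 5.78 CPM (lamb F), a median of 15.3 and a highest of 20.6 (lamb A). Its basal ganglia levels had a lowest value of 0.926 (lamb F), a median of 2.03 and a highest of 8.11 CPM (lamb I). The regions overlapped only through the highest basal ganglia value, that of lamb I, and the motor cortex value of lamb F. Means were 14.6 ± 4.58 and 2.94 ± 2.31 CPM (SD, n = 9), the fitted log2 difference was 2.55 with an SE of 0.35 (edgeR adjusted p = 0.0104), and the gene was called in all 9 fits without 1 lamb. The paired difference was 0.33 log2 units in lamb I and 1.55 (lamb C) to 3.98 (lamb G) in the others.

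In favour of the basal ganglia, ENSOARG00000020799 had the largest fold among the genes that met the rule. Its basal ganglia levels were 19.7 CPM in lamb A, 12.4 in B, 17.7 in C, 33.5 in D, 135 in E, 28.5 in F, 68.1 in G, 68.5 in H and 5.65 in I. Its motor cortex levels ran from 0.759 CPM (lamb H) over a median of 1.55 to 3.62 (lamb G). The 2 regions did not overlap, and the lowest basal ganglia value was that of lamb I. Means were 43.2 ± 41.1 CPM in the basal ganglia and 1.75 ± 0.954 in the motor cortex (SD, n = 9), the fitted log2 difference was -4.22 with an SE of 0.48 (edgeR adjusted p = 0.00487), and the gene was called in all 9 fits without 1 lamb.

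ENSOARG00000004619 came next. Its basal ganglia levels were 18.3 CPM in lamb A, 140 in B, 67.5 in C, 407 in D, 23.5 in E, 114 in F, 204 in G, 34.2 in H and 10.7 in I, a spread that is far wider than in the motor cortex, where values ran from 3.76 (lamb I) to 14.1 CPM (lamb D). Lamb I had the lowest level in both regions, and its basal ganglia value lay within the range of the motor cortex. Means were 113 ± 128 and 9.53 ± 2.91 CPM (SD, n = 9), the fitted log2 difference was -2.83 with an SE of 0.45 (edgeR adjusted p = 0.015), and the call was kept in all 9 fits without 1 lamb. The order of the lambs differed from that of ENSOARG00000020799, which was highest in lamb E where ENSOARG00000004619 was among the lower values.

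**Figure D3:**
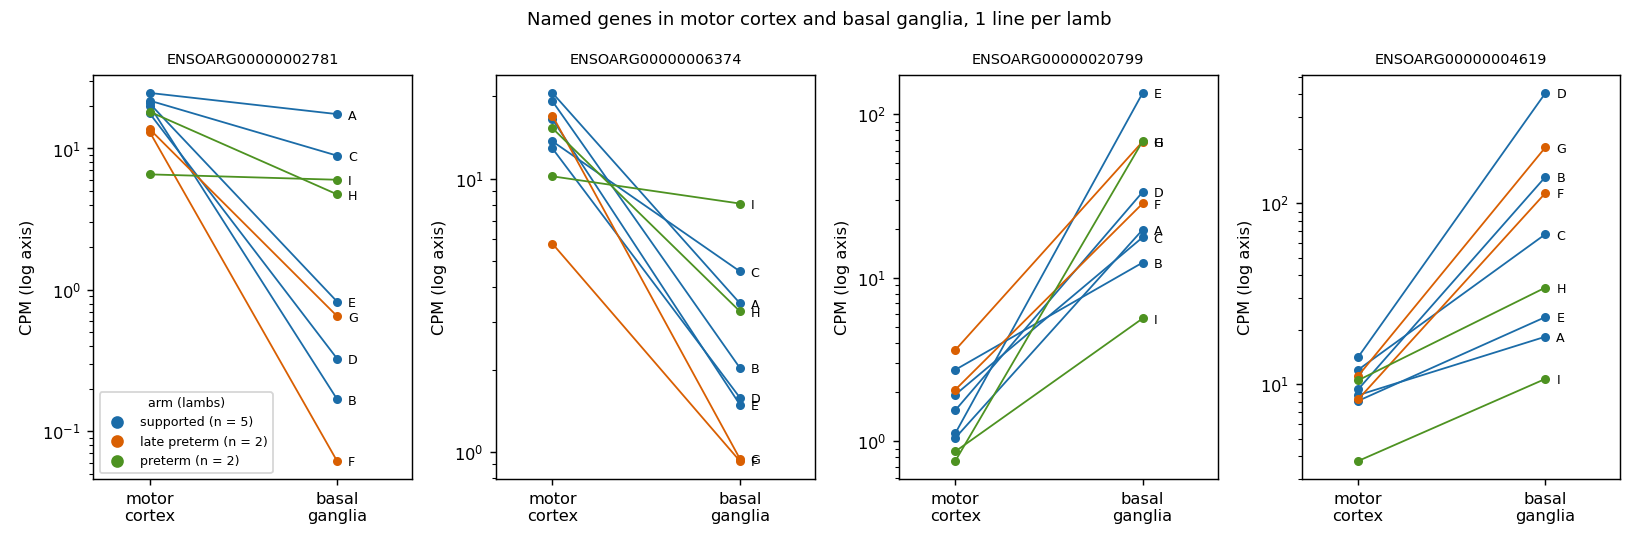
CPM on a log axis (y) in the motor cortex and basal ganglia (x) for the 4 genes with the largest folds among those that met the rule on abundance, counts and equal sign in 9 lambs, with 1 line per lamb coloured by arm. Every line points the same way within a gene, and the basal ganglia values spread more widely than the motor cortex values.

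The other 2 regions of the same lambs, which took no part in the test, showed where the called genes stand elsewhere in the brain. For each left-out lamb, its 4 libraries were placed on a scale over the genes called in the other 8, with 0 at the mean basal ganglia and 1 at the mean motor cortex level of those 8. The genes and means differed with the lamb left out, from 156 genes for E to 2639 for I. Positions of different lambs are therefore not on the same scale. The 0 point of every lamb but I includes the basal ganglia of lamb I. The motor cortex libraries were placed at 0.80 (lamb B) to 1.07 (lamb E). The basal ganglia libraries were placed at -0.21 in E, -0.18 in G, -0.17 in D, -0.13 in F, 0.09 in B, 0.14 in H, 0.39 in C, 0.44 in A and 0.93 in I. The basal ganglia of lamb I was thus placed above its own motor cortex, at 0.84, and the basal ganglia of A and C lay part of the way to the motor cortex.

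The hippocampus, a cortical structure of the medial temporal lobe, had no fixed place on this scale. It was near the motor cortex mean in lambs G (0.94), H (0.92) and I (0.87). In B (-0.14) and E (-0.15) it lay slightly below the basal ganglia mean, as did the basal ganglia of D, E, F and G (-0.13 to -0.21). It was between the means in A (0.65), C (0.34), D (0.27) and F (0.23). The cerebellum lay at -0.04 (lamb I) to 0.17 in 7 lambs and at 0.54 in D and 0.45 in G. In mean levels over 9 lambs, the hippocampus lay between the 2 regions for 530 of the 555 genes with the motor cortex higher and 494 of the 529 with the basal ganglia higher, and was nearer to the basal ganglia for 61.1% and 62.6% of them. Without lamb I these shares were 57.9% and 62.2%. Of the genes higher in the motor cortex, 355 of 555 were lower still in the cerebellum than in the basal ganglia (828 of 1357 without lamb I). Of those higher in the basal ganglia, 191 of 529 were higher still in the cerebellum (440 of 1282 without lamb I). Genes were chosen for a large difference between 2 of these regions, so that another mean tends to fall between them, and these shares are descriptions.

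**Figure D4:**
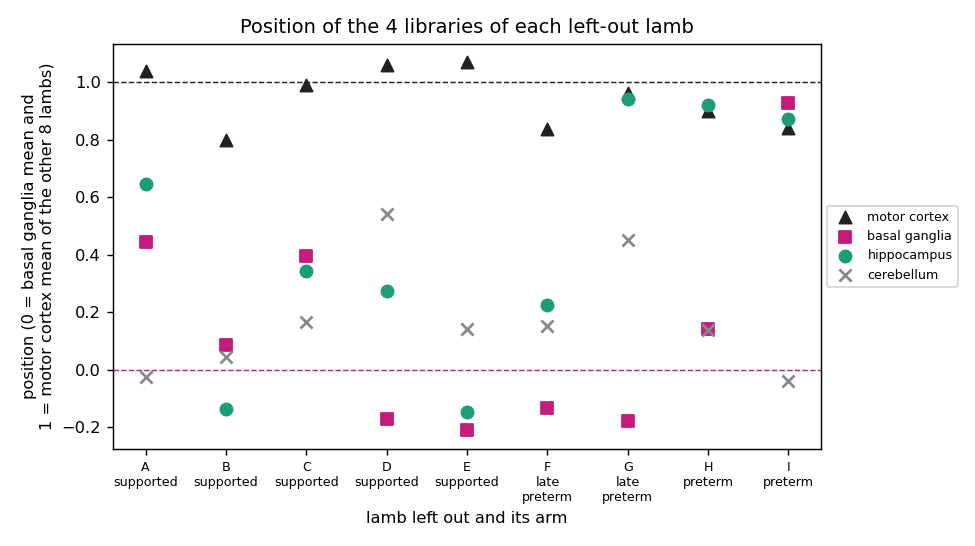
Position of the 4 libraries (y axis, 0 the mean basal ganglia and 1 the mean motor cortex of the other 8 lambs over the genes called in those 8) for each left-out lamb (x axis, with its arm). Triangles stay near 1, squares lie near or below 0 except in lambs A, C and I, and the hippocampus (circles) ranges from -0.15 to 0.94.

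The difference between the regions was then estimated in each arm, with the spread shared by all 18 libraries. In the 5 supported lambs 698 genes (4.50%) were called, with the motor cortex higher in 344 and the basal ganglia in 354, and their median absolute log2 difference was 0.94. This count rested on single animals. It was 1192 without lamb A, 37 without B, 461 without C, and 0 without D or without E (3421 and 3039 genes at an unadjusted p under 0.05), 31 without F or without G, and 122 when the supported libraries were fitted alone. In DESeq2 it was 2623.

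In the 2 late preterm lambs 618 genes (3.99%) were called, with the motor cortex higher in 307 and the basal ganglia in 311, and their median absolute log2 difference was 1.42. When 1 of them was left out, the other was assumed to vary like the other arms, and 3 genes were called without F and 2 without G. Without F these were ENSOARG00000007864, ENSOARG00000004940 and ENSOARG00000016242, and without G they were ENSOARG00000017804 and ENSOARG00000004940, picked out because they were so few. Between the supported and the late preterm lists, which come from separate lambs but share 1 estimate of the spread, 148 genes were in both, 142 of them in the same direction. That is 21.2% of the supported and 23.9% of the late preterm list.

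In the 2 preterm lambs edgeR called no gene (0%), with an unadjusted p under 0.05 for 447, while the count in DESeq2 was 7. One of these 2 lambs is lamb I. Both preterm lambs are in the shallower group and both late preterm lambs in the deeper one. Arm and depth therefore cannot be told apart between these 2 arms. With lamb H alone for this arm the count was also 0, with 870 genes at an unadjusted p under 0.05. The absence of calls in 2 lambs does not show that the regions were alike at this stage. Lamb H had the direction of the others in 92.7% of the genes they called, against 69.5% of all tested genes. For lamb I, the other lamb of this arm, the shares were 31.3% and 39.4%.

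The test of whether the region difference itself depended on the arm called 22 of 15507 genes (0.142%) in edgeR, and the unadjusted p was under 0.05 for 1895 (12.2%). In all 22 the late preterm lambs were the arm farthest from the other 2, with the lowest difference in 12 and the highest in 10. The basal ganglia libraries of F and G both lay outside the range of the other 7 basal ganglia libraries in all 22 genes, above it in 12 and below it in 10, against 17.2% of all tested genes. In the motor cortex they lay outside in 1 gene, in the hippocampus in 0 and in the cerebellum in 2 of the 22, against 8.09%, 2.64% and 2.22% of all tested genes. The 22 were chosen for a difference that depends on the arm, so values of F and G far from the rest in at least 1 of the compared regions follow in part from the choice. Of the 22 genes, 1 was also called over all arms, and the sign of the difference varied between arms in 15. F and G are also the pair that stood at one end of the second principal component, and both are male.

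ENSOARG00000007864 had the smallest p in this test. Its basal ganglia level was 55.4 CPM in F and 92.4 in G, against 3.65 (lamb D) to 8.38 CPM (lamb I) in 6 other lambs and 20.5 in lamb H. Its motor cortex level was 5.09 in F, 5.97 in G, 25.7 in H and 3.48 to 9.17 in the other 6. The region difference was -3.70 log2 units in the late preterm, 0.03 in the supported and 0.23 in the preterm lambs (edgeR adjusted p = 0.0205 for the difference between arms). In the hippocampus the gene was at 75.3 CPM in lamb B, 84.2 in E and 28.8 in F, and at 4.83 to 11.4 in the other 6 lambs. High levels thus occurred in supported lambs too, in another region.

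ENSOARG00000004940 went the other way. It was nearly absent from the basal ganglia of F (0.185 CPM) and G (1.60 CPM) and at 42.2 (lamb C) to 134 CPM (lamb D) in the other 7. In the motor cortex all 9 lambs lay between 64.6 (lamb C) and 119 CPM (lamb I), with F at 87.7 and G at 90.7. The difference was 6.81 log2 units in the late preterm, 0.24 in the supported and 0.28 in the preterm lambs (edgeR adjusted p = 0.0387 for the difference between arms). In the hippocampus the low lambs were B (8.59 CPM) and E (2.00 CPM), with the other 7 at 62.2 to 128. These 2 lambs are the ones whose hippocampus was placed nearest to the basal ganglia on the scale above. Their own basal ganglia held the gene at 85.8 CPM (lamb B) and 64.8 CPM (lamb E), and a link was not tested.

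**Figure D5:**
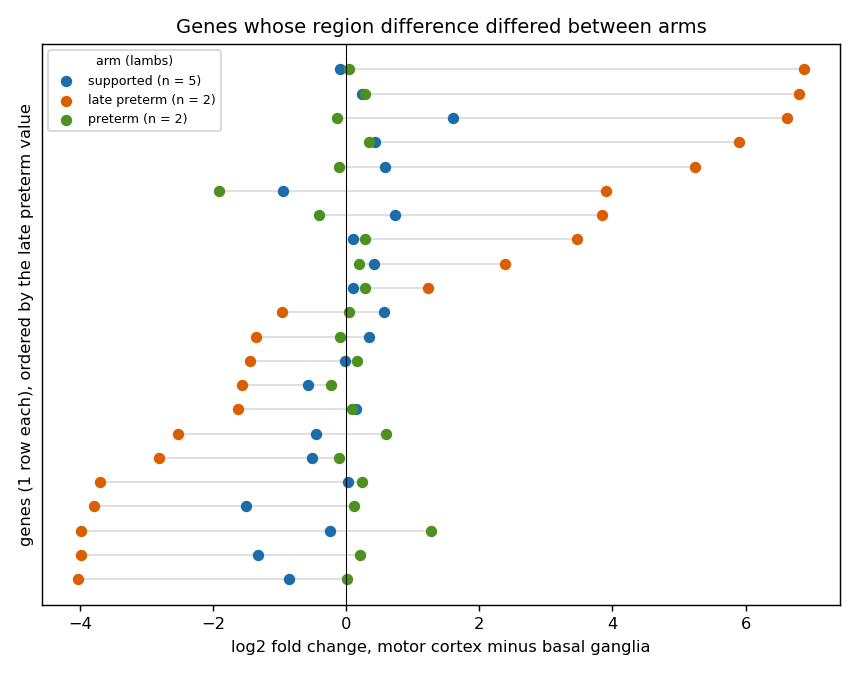
Log2 fold change of motor cortex against basal ganglia (x axis) in the supported, late preterm and preterm lambs for the 22 genes whose region difference differed between arms, 1 row per gene (y axis). The late preterm value is the outermost point in every row, with 10 rows to the right and 12 to the left.

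The count of genes that differed between arms was 0 without any 1 of lambs C, D, F, G, H or I, where 842 (without G) to 2472 (without H) genes had an unadjusted p under 0.05 in edgeR, and it was 7 without A, 1 without B (ENSOARG00000007864) and 13 without E. DESeq2 called 496 genes, which included all 22. Which nuclei were sampled in F and G is not given, so the arm and the place of sampling cannot be told apart.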

How the data were processed

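The deposited table holds raw read counts per gene. The authors removed adapters with fastp, mapped read pairs with STAR against Ensembl release 107 and kept the unstranded STAR gene counts, per the series' design text, so reads of overlapping or antisense genes cannot be told apart. No version of fastp or STAR is given in the sources. Of 27054 identifiers, 0 matched the 35057 genes of the reference table (assembly ARS-UI_Ramb_v3.0).

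The 18 libraries were fitted alone with edgeR 4.0.16 in R 4.3.3 (TMM factors, filterByExpr by region, lamb as a block, quasi-likelihood F-test, Benjamini-Hochberg adjustment over all tested genes, threshold 0.05). A second fit had 1 region coefficient per arm. DESeq2 1.42.0 was an alternative. CPM uses TMM factors, log2 CPM a prior count of 2, and SEs were taken from the fold change and F. The fits were tested on simulated data. Hippocampus and cerebellum levels were scaled over 36 libraries.

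Pairing comes from the animal. Deviations from region and arm means correlated at 0.034 to 0.301 within lambs (mean 0.152) and at -0.331 to 0.298 between lambs (mean -0.0189). Of 9 lambs, 5, all supported, matched their own other library best. Such deviations cancel out within each region and arm, so the between-lamb mean largely follows from the within-lamb mean. Those of F and G mirror each other, as do those of H and I. F and G therefore share 0.0348, and H and I share 0.034. The 9 values are not independent, and the means cannot test the pairing. Within the 24 pairs of the same region and arm, no library was a copy of the other (chi-square per degree of freedom 8.23 to 122.9). Pairs across regions or arms were not compared in this way. The labels give no batch.

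The comparison, lists and tests were chosen with earlier results of these data known. Named genes were the 2 with the largest fold change in each direction among called genes with a mean of at least 1 log2 CPM, the same sign in 9 lambs and over 6 counts in at least 1 library of the lower region, and the 2 with the smallest p between arms. Others were named because a count was very small, after their values were seen. No marker list was tested.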

Additional observations from a re-analysis of the deposited data

Results flagged for a closer look

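Of 43 sets of per-lamb values examined, 7 had 1 lamb far from the rest by Dixon's gap criterion. For independent, normally distributed values, chance alone reaches it in about 1 set in 20. The sets here overlap and include CPM values of chosen genes, so that rate need not hold and the 7 cannot be read against it. Lamb I had the lowest share of genes with the direction called in the other 8 lambs, at 31.3%, and its omission gave the highest count of called genes, at 2652. The other 5 were single levels of named genes. ENSOARG00000002781 was at 17.5 CPM in the basal ganglia of lamb A, ENSOARG00000004619 at 407 CPM in the basal ganglia of lamb D, and ENSOARG00000007864 at 25.7 CPM in the motor cortex of lamb H. ENSOARG00000020799 was at 135 CPM in the basal ganglia of lamb E, which stood apart both among 9 lambs and among the 5 supported lambs.

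Differences between arms in the region difference were called for 22 genes, among them ENSOARG00000007864 (edgeR adjusted p = 0.0205) and ENSOARG00000004940 (edgeR adjusted p = 0.0387). In all 22 the basal ganglia libraries of lambs F and G both lay outside the range of the other 7, as in 17.2% of all tested genes, and the 22 were chosen for a difference that depends on the arm.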

How the results depend on the processing

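Over all arms, 1084 genes became 2637 in DESeq2, 2 in lambs A, H and I, 1788 in lambs B to G, 0 in male lambs and 156 (without E) to 2652 (without I) without 1 lamb. It was 1827 in lambs B, D, E and H. These were picked in an earlier analysis of these data by how their basal ganglia libraries matched that region, and the values of that match are not shown here. As that choice used the outcome, this count supports nothing. Without the replicate block the count was 1536, within 1.5 times the paired one. It stayed within 1.5 times with RLE factors (1057), without the filter (997), in female lambs (1004) and over 36 libraries (916). Similar counts did not mean the same genes. Those shared with the 1084 in the same direction numbered 974 without the replicate block, 1047 with RLE factors and 904 without the filter. In female lambs they numbered 513 and over 36 libraries 600.

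For supported lambs 698 became 1363 without the replicate block, 2623 in DESeq2, 122 with that arm alone and 0 to 1192 without 1 lamb. For late preterm lambs 618 became 1660 in DESeq2, 1377 with that arm alone and 2 to 588 without 1 lamb. For preterm lambs 0 became 7 in DESeq2. The 22 genes that differed between arms became 14 with RLE factors, 47 without the replicate block, 496 in DESeq2 and 0 to 13 without 1 lamb. Smaller fits hold fewer animals, and other causes were not tested. Of 76 alternative values of the 4 genes named by fold change, 57 kept direction and call, 19 kept the direction but lost the call and 0 reversed. For ENSOARG00000002781, 12 of 19 lost the call. These genes were chosen among called genes with the same sign in every lamb, and the alternatives used the same lambs or some of them. The kept direction therefore largely follows from the choice and cannot test whether the direction is stable.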

Other observations

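The genes named by fold change also had levels in the regions left out of the test (n = 9 each), and several means there rested on 1 or 2 lambs. ENSOARG00000002781 had a median of 11.8 CPM in the hippocampus (0.589 to 28.8) and of 0.266 CPM in the cerebellum, where the mean of 2.81 CPM was 1.01 without lamb D at 17.2. ENSOARG00000006374 had a median of 2.66 CPM in the hippocampus, with G at 24.0 and H at 26.0 and the other 7 at most 5.21. In the cerebellum its median was 0.266 CPM, and the mean of 1.87 was 0.736 without lamb D at 11.0. ENSOARG00000020799, higher in the basal ganglia, had a median of 11.0 CPM in the hippocampus, and the mean of 28.4 was 13.1 without lamb B at 151. In the cerebellum its median was 0.975 CPM, and the mean of 1.25 was 0.759 without lamb H at 5.19. ENSOARG00000004619 had medians of 23.8 CPM in the hippocampus (13.2 to 97.8) and 15.5 CPM in the cerebellum (4.78 to 43.5). ENSOARG00000004940 was at 33.1 CPM in the cerebellum of lamb D and 30.3 CPM in that of lamb G, and at most 0.45 CPM in the cerebellum of the other 7 lambs.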
